A study of Mus musculus with 41 samples.

Results

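Keratin genes were followed across 41 mouse melanomas collected at different times after an oncogene was switched off. The members are the genes whose symbol is Krt followed by a number and nothing else, read from probe sets that name exactly 1 gene. The array holds 44 such genes on 55 probe sets, out of 18194 genes in all. Where a gene had more than 1 probe set, that of the highest mean over the 41 arrays was kept. A filter on low values, under which 3 or more arrays must exceed their own 40th percentile, was passed by 36 of the 44 keratins and by 14319 genes in all. Krt6a, Krt6b, Krt33a and Krt33b carry a letter in their symbols and are no members.

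The tumours came from iBIP mice, a strain with inducible BRAF and loss of Ink4a/Arf, in which doxycycline in the drinking water keeps the BRAF transgene on. The promoters that drive the alleles, and the age of the mice, are not given in the sources used here. The day 0 group is 4 tumours of mice still on the drug. The groups off the drug held 7 tumours (day 1), 5 (day 2), 6 (day 3), 4 (day 6), 3 (day 9), 1 (day 16) and 1 (day 29). A last group of 10 pools days 63, 77, 90, 121, 136 and 163 and is called late. The protocol states that the overlying skin was trimmed away and that RNA came from a small piece of the tumour's inner tissue. Whether tumours came from separate mice is not in the labels, so p-values measure only the spread between these samples.

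Keratins are the intermediate filament proteins of epithelial cells and assemble as pairs of an acidic type I and a basic type II chain. The pair a cell makes follows its type: Krt14 with Krt5 in the basal layer of the epidermis, Krt10 with Krt1 in the layers above it, Krt18 with Krt8 in simple epithelia. The hair follicle has further sets of its own, among them Krt25, Krt27 and Krt71 in the inner root sheath and Krt31, Krt35 and Krt86 in the hair shaft. Melanocytes arise from the neural crest and are not known for making epidermal keratins, and they sit in the skin next to cells that do. In such bulk samples fewer cells of a type and less RNA per cell cannot be told apart.

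Levels are log2 intensities computed from the deposited values, and a difference of 1 is a change of 2-fold. A gene was called in a comparison when limma's Benjamini-Hochberg adjusted p, taken over all 14319 tested genes, was under 0.05. Of 13 melanocyte genes 11 passed the filter, among them the neural crest transcription factor gene Sox10, which lay between 8.30 and 11.28 in the 41 tumours. The list as a whole lay lower, the mean of the 11 genes running from 6.46 to 7.91 over the tumours. Spike-in controls split the arrays into 3 sets that follow the days. Set 1 holds days 2, 3 and 6 and 1 tumour of day 1, set 2 the other 6 tumours of day 1 and 8 late ones, and set 3 days 0, 9, 16 and 29 and 2 late ones. The gap between the 3' and 5' control probe sets of Gapdh, a measure of RNA integrity, was over 2 in day 9 replicate 3 and 8 of the late tumours. In late replicates 5 and 8 it was 0.60 and 0.27. Those limits, on the spike-ins and on the gap, were picked with the data in view.

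Krt14, the type I keratin of basal keratinocytes, varied widely between tumours of the same day. Its log2 intensity was 6.06, 8.10, 11.38 and 12.91 in the 4 tumours of day 0. At day 2 the values were 6.91, 12.33, 12.77, 12.76 and 13.37, and at day 6 they were 12.18, 13.63, 13.64 and 11.72. In the late tumours they ran from 6.23 over a median of 12.73 to 13.31. So 1 tumour of day 0 stood as high as most late tumours, and 1 late tumour, at 6.23, lay near the lowest of day 0. Day 1 ran from 7.58 to 12.95 (median 11.32), day 3 from 10.38 to 13.78 (median 11.54) and day 9 from 11.26 to 13.18 (median 11.58), and the tumours of days 16 and 29 were at 12.84 and 10.30. The range within a day came to 115-fold at day 0, 41.2-fold at day 1, 88.4-fold at day 2, 10.6-fold at day 3, 3.79-fold at day 6 and 135-fold in the late tumours. Against day 0 the mean differed by 2.19 ± 1.32 (SE) at day 3, by 3.18 ± 1.45 at day 6 and by 1.97 ± 1.21 in the late tumours, with limma adjusted p of 0.246, 0.147 and 0.183, so none of the 3 was called. The kept probe set is of a kind marked as prone to cross-hybridisation. The other 2 of Krt14, which are not, correlated with it at 0.992 and 0.774.

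Krt5, the type II partner of Krt14, gave the same picture. The day 0 mean was 8.50 ± 2.16 (SD, n = 4) and the day 1 mean 9.07 ± 1.61 (SD, n = 7). By day 6 it was 10.79 ± 1.19 (SD, n = 4), and the late mean was 9.89 ± 1.78 (SD, n = 10). The 4 values of day 0 ran from 6.35 to 11.04 and the 10 late ones from 5.86 to 11.72, so the late range covered the whole of the day 0 range. At day 6 Krt5 differed from day 0 by 2.29 ± 1.15 (limma adjusted p = 0.193). Krt15, a keratin of basal and bulge cells of the hair follicle, averaged 5.96 ± 0.77 (SD, n = 4) on the drug and 7.62 ± 1.49 (SD, n = 10) late. It rose by 1.66 ± 0.62 (SE, limma adjusted p = 0.0269), with 5 of the late tumours above 8, 3 within the range of day 0, which was 5.26 to 6.86, and 1 below it. The call was lost without day 0 replicate 1 or 2 (adjusted p up to 0.0993). It was lost too with the Gapdh gap as a covariate (0.763), and without the 9 tumours of a gap over 2 the difference was -0.34.

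**Figure D1:**
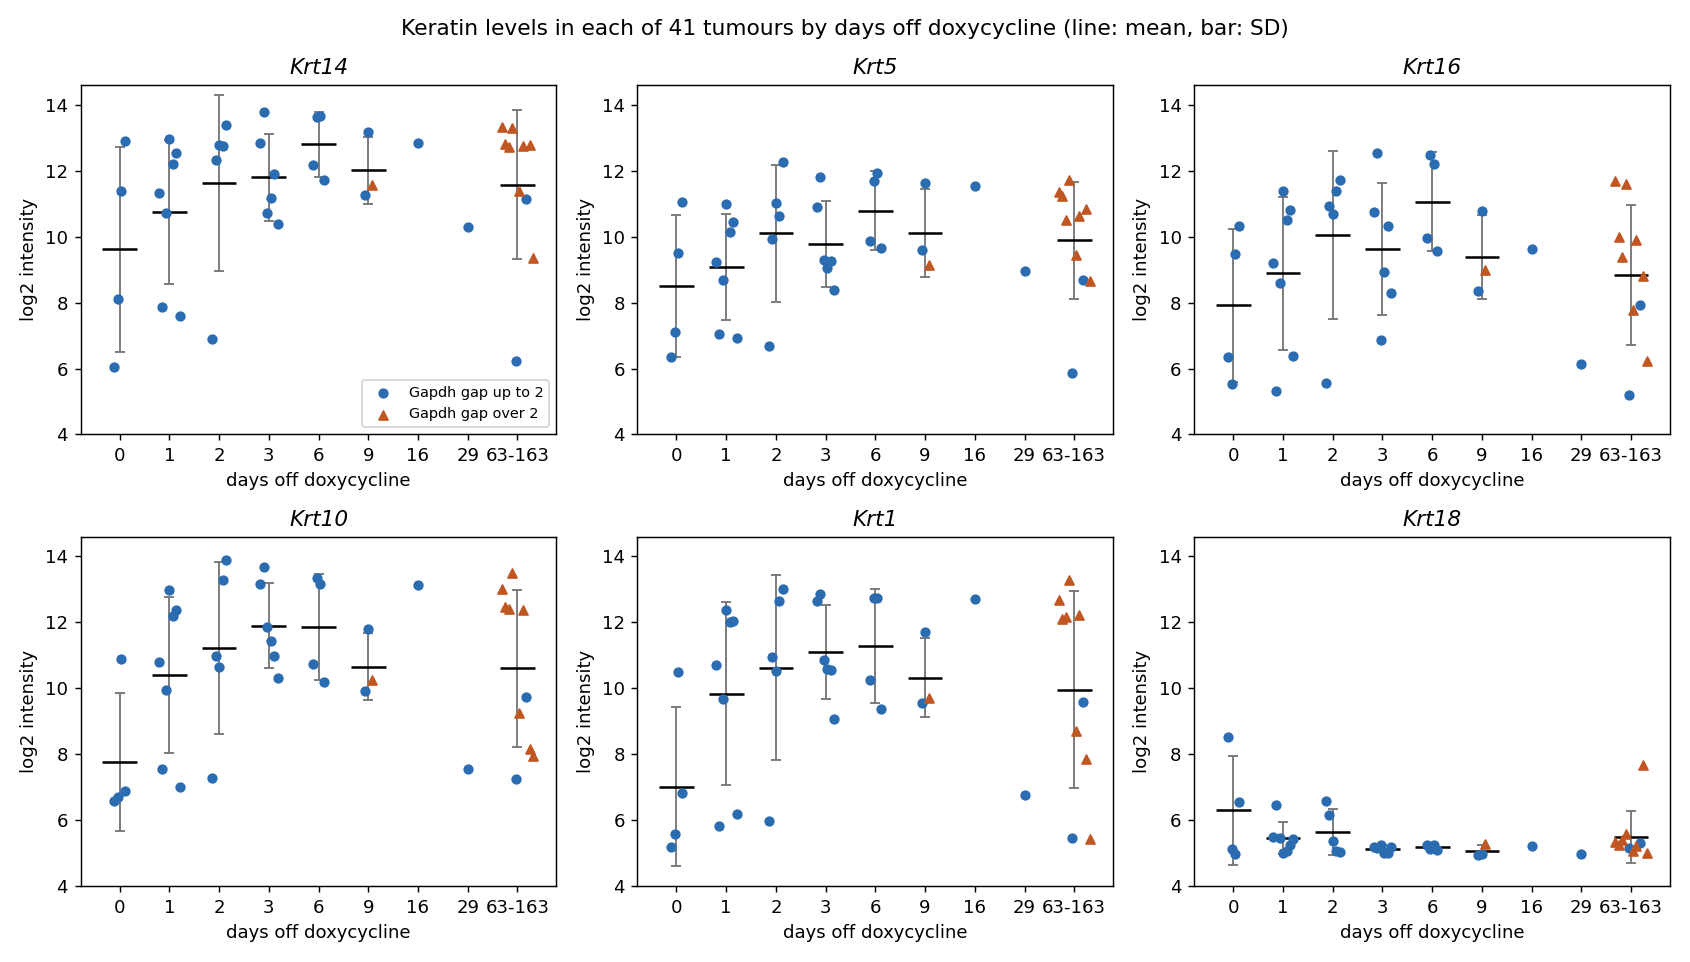
Log2 intensity of Krt14, Krt5, Krt16, Krt10, Krt1 and Krt18 in each of 41 tumours (points), by days off doxycycline, with the mean as a line and the SD as a bar; triangles mark the 9 tumours with a Gapdh gap over 2. Krt14 spans 6.06 to 12.91 at day 0 and 6.23 to 13.31 in the late tumours, while Krt18 is above 7 in 1 tumour of day 0 and 1 late tumour.

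Krt10 and Krt1, the pair that keratinocytes switch to when they leave the basal layer, were low in 3 of the 4 tumours of day 0. Krt10 was at 6.57, 6.71, 10.89 and 6.89 there, between 6.995 and 12.99 at day 1 (median 10.80), and between 10.32 and 13.67 at day 3 (median 11.64). At day 6 it was at 10.74, 13.33, 13.17 and 10.21, and in the late tumours it ran from 7.24 to 13.49 (median 11.05). The day 3 tumours overlapped with day 0 only through day 0 replicate 3, which had a Krt10 of 10.89. Krt10 rose at day 3 by 4.14 ± 1.31 (SE, limma adjusted p = 0.0228), and this was the only call of Krt10. The call was lost without day 0 replicate 1, 2 or 4 or day 3 replicate 2 (differences from 3.74, adjusted p up to 0.0799), and with a block for spike-in set the difference was -2.07 (adjusted p = 0.783). Day 3 lies wholly in set 1 and day 0 wholly in set 3, and only 1 tumour of day 1 links set 1 to the others. The difference at day 6 was 4.10 ± 1.44 (adjusted p = 0.0562) and in the late tumours 2.84 ± 1.20 (adjusted p = 0.0516).

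Krt1 averaged 7.02 ± 2.41 (SD, n = 4) on the drug and 11.10 ± 1.43 (SD, n = 6) by day 3. The day 6 mean was 11.28 ± 1.73 (SD, n = 4) and the late mean 9.96 ± 2.98 (SD, n = 10). Its late values ran from 5.44 to 13.29, a 230-fold range. The difference of 4.08 ± 1.54 (SE) at day 3 had a limma adjusted p of 0.0549, and without day 0 replicate 3 it was 5.23 and was called (adjusted p = 0.0252). With a block for spike-in set it was -3.03 (adjusted p = 0.723). Krt2, a keratin of the upper spinous and granular layers, was between 4.59 and 5.82 at day 0. It lay above 7 in 2 tumours of day 2, 3 of day 3, 2 of day 9, 1 of day 1 and 3 late tumours, and it was called in no comparison. The day 6 tumours were all between 4.76 and 5.16 in Krt2 although their Krt10 was between 10.21 and 13.33. Among the other suprabasal keratins, Krt77 stood out in late replicate 2 (8.56) and day 9 replicate 3 (7.01) and was at most 6.50 in every other tumour. Krt78 ran from 6.23 to 8.70. Krt80 averaged 6.93 ± 0.44 (SD, n = 4) on the drug and 7.89 ± 0.96 (SD, n = 10) late, and rose by 0.96 ± 0.39 (SE, limma adjusted p = 0.0428). That call was lost without any 1 of 9 tumours, namely day 0 replicates 1, 2 and 3 and late replicates 1, 2, 3, 4, 7 and 9 (adjusted p up to 0.129).

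The stretches of 80 bases before the start of the genes that the results turn on are shown here, since these keratins moved in blocks from tumour to tumour. They are RefSeq's for GRCm38.p6 and read 5' to 3' along the gene's strand, which is the minus strand for all 5. Capitals mark the letters TATAAA, the motif of a TATA box. Krt14 lies at chr11:100206031-100206110, Krt5 at chr15:101712906-101712985, Krt10 at chr11:99389365-99389444, Krt71 at chr15:101743098-101743177 and Krt79 at chr15:101940325-101940404.
Krt14: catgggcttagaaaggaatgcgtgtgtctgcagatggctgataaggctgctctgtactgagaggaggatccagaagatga
Krt5: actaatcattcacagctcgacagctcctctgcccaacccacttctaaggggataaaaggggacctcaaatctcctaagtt
Krt10: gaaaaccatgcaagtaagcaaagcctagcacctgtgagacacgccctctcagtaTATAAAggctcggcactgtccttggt
Krt71: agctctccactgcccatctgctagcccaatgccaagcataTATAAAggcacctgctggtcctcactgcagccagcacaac
Krt79: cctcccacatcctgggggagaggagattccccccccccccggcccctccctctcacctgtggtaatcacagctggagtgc

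In Krt10 the motif began 26 bases before the start and in Krt71 40 bases before it. Of the 44 keratins 31 had an entry in the promoter table, with 32 promoters. TATAAA, searched on both strands, was in 13 of those 32 (40.6%) and in 4.75% of all 32851 promoters of the same length. The letters TGANTCA, which AP-1 factors bind, were in 1 of the 32 (3.12%) and in 2.11% of all promoters. A match describes letters in this window and not a bound site.

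Over the days with at least 3 tumours the epidermal keratins were among the most variable of all genes between tumours of 1 day. The pooled SD within a day was 2.48 for Krt1, 2.13 for Krt14, 2.13 for Krt16, 2.12 for Krt10 and 1.70 for Krt5, which put them at ranks 3, 11, 12, 13 and 51 of 14319 tested genes. Next came Krt2 at 1.60, Krt79 at 1.49, Krt17 at 1.39, Krt15 at 1.08 and Krt25 at 1.07. An SD over 1 was found in 10 of 36 keratins (27.8%) and in 277 of all tested genes (1.93%), and an SD over 2 in 4 keratins and 17 genes (0.119%). Other genes with an SD over 2 included Rptn, Calm4, Krtdap, Sprr1b, Dmkn and Hrnr, which are expressed in the outer epidermis, Krt6b, Myh1, a myosin gene of skeletal muscle, and the sex-linked genes Xist, which ranked first (2.779), and Eif2s3y (2.061). The median SD was 0.46 over the 36 keratins and 0.25 over all tested genes.

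Days accounted for little of that spread. Of the total sum of squares, 15.3% lay between days for Krt14, 14.0% for Krt5, 15.6% for Krt16, 20.7% for Krt1 and 26.1% for Krt10. The median over the 36 keratins was 19.0% and over all tested genes 39.3%. Krt79 (47.9%), Krt76 (48.4%) and Krt81 (40.7%) were the keratins above that second value. A moderated F test for any difference among the 7 days with at least 3 tumours called 6 of 36 keratins (16.7%), namely Krt4, Krt17, Krt32, Krt76, Krt79 and Krt81, and 60.7% of all tested genes, so the keratins' share was below the background.

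**Figure D2:**
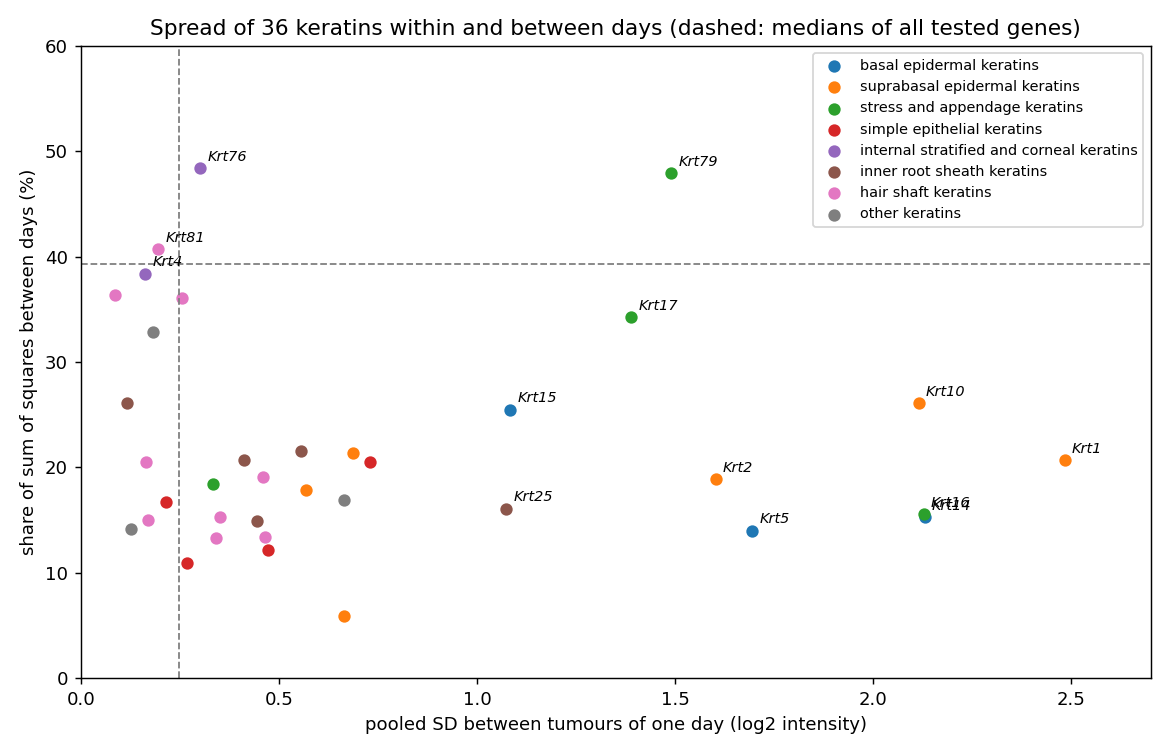
Pooled SD between tumours of the same day (x axis, log2 intensity) against the share of the sum of squares between days (y axis, percent) for 36 keratins, coloured by role; dashed lines mark the medians of all tested genes, 0.25 and 39.3%. Krt1, Krt14, Krt16, Krt10 and Krt5 lie far to the right and below the line, and Krt79 to the right and above it.

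Which tumours were high was shared between Krt14, Krt5, Krt10 and Krt1, and less so with other basal and suprabasal keratins. As a description over 41 tumours, r with Krt14 was 0.699 for Krt15, 0.691 for Krt80, 0.572 for Krt78, 0.453 for Krt2 and 0.232 for Krt77. Ordered by Krt14, the lowest 6 tumours were day 0 replicate 1 (6.06), late replicate 5 (6.23), day 2 replicate 1 (6.91), day 1 replicates 7 (7.58) and 2 (7.87) and day 0 replicate 2 (8.10). The next tumour was at 9.35, a step of 1.25 and the widest between neighbours. In the same 6 tumours Krt5 lay between 5.86 and 7.10, Krt10 between 6.57 and 7.57 and Krt1 between 5.18 and 6.19. Of the other 35 tumours none had a Krt5 below 8.37. Krt10 and Krt1 did not part the 6 from the rest, with Krt10 at 6.89 in day 0 replicate 4 and Krt1 at 5.44 in late replicate 10.

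Over the 41 tumours Krt5 and Krt14 correlated at r = 0.965 (rho = 0.981) and Krt1 and Krt10 at r = 0.983 (rho = 0.979), both with a permutation p of 1e-05, the smallest that 1e+05 resamples can give, and 2.6e-05 adjusted over 13 pairs. Without the 2 tumours farthest from the median the values were 0.957 and 0.986, and among the 35 tumours above the step in Krt14 they were 0.935 and 0.974. Deviations from the day means gave 0.965 and 0.981 over 39 tumours. Within the 3 spike-in sets Krt5 and Krt14 correlated at 0.947, 0.979 and 0.968, and Krt1 and Krt10 at 0.984, 0.99 and 0.969. So the members of each pair moved together within days and within array sets as well.

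The basal and the suprabasal pair were tied less closely to each other. Krt14 and Krt10 had r = 0.808 (rho = 0.799, adjusted permutation p = 2.6e-05), 0.802 for deviations from the day means, 0.781 without the 2 tumours farthest from the median, and 0.864, 0.95 and 0.616 within the 3 sets. Among the 35 tumours above the step in Krt14 it was 0.652. Some tumours had the basal keratins without the suprabasal ones. Day 0 replicate 4 had Krt14 at 12.91, Krt5 at 11.04 and Krt16 at 10.32, but Krt10 at 6.89 and Krt1 at 6.83. Late replicate 9 had Krt14 at 12.79 and Krt5 at 10.85, with Krt10 at 8.16 and Krt1 at 7.87. In the day 29 tumour Krt14 was at 10.30 and Krt10 at 7.55.

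**Figure D3:**
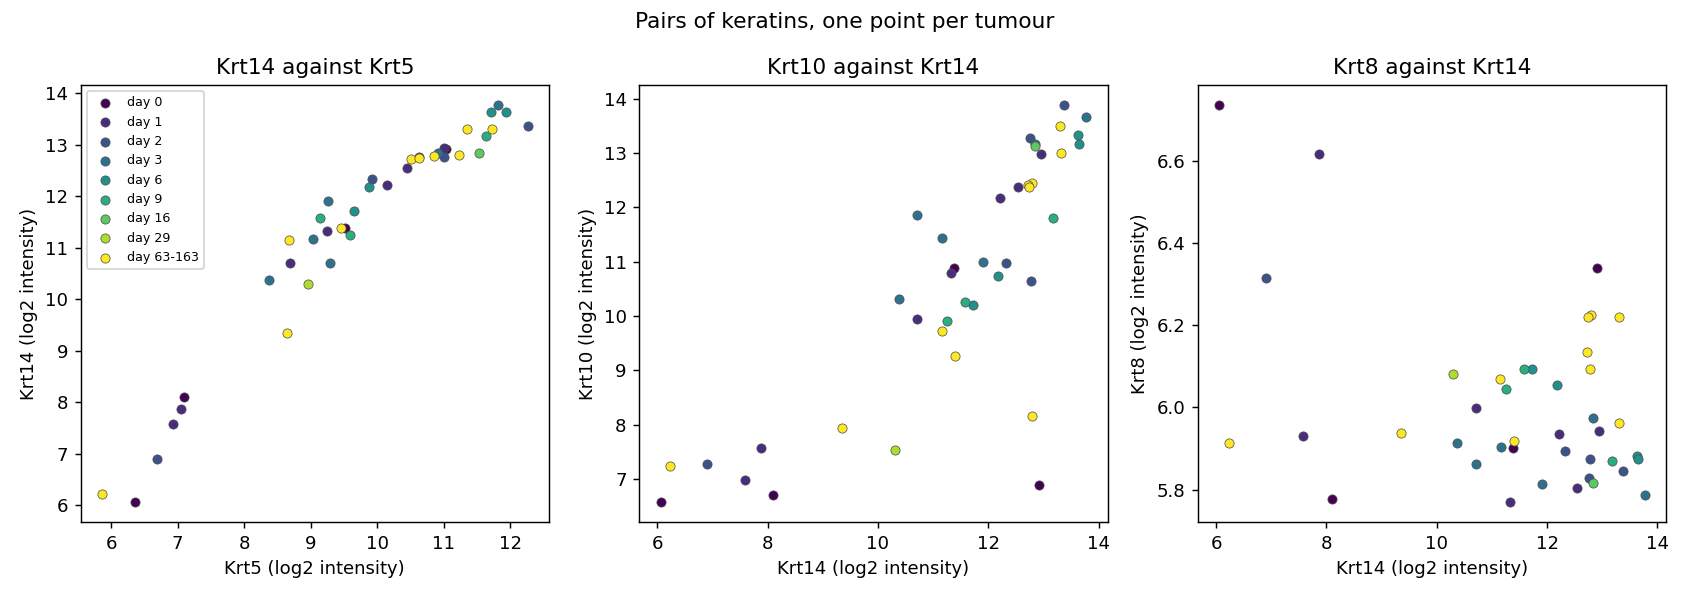
Log2 intensity of Krt14 against Krt5, Krt10 against Krt14 and Krt8 against Krt14, 1 point per tumour (n = 41), coloured by days off doxycycline. Krt14 and Krt5 lie on 1 line (r = 0.965), Krt10 falls below the others in a few tumours of high Krt14 such as day 0 replicate 4 (6.89), and Krt8 changes little.

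Of the epidermal genes outside the keratin family, Trp63 and Lor were set against the keratins. Krt14 correlated with Trp63, the transcription factor gene of basal epithelial cells, at r = 0.858 (rho = 0.910, adjusted permutation p = 2.6e-05), with 0.911 for deviations from the day means. Krt10 correlated with Lor, which encodes the cornified envelope protein loricrin, at r = 0.896 (rho = 0.936, adjusted permutation p = 2.6e-05), with 0.904 for deviations. Without the 2 tumours farthest from the median the values were 0.862 and 0.889, and over the 3 sets they lay between 0.819 and 0.897 for Trp63 and between 0.825 and 0.918 for Lor. Trp63 itself ran from 4.90 to 10.02 over the tumours and Lor from 7.28 to 12.30. Genes of the cornified list differed widely in spread. The pooled SD within a day was 2.57 for Rptn, 2.19 for Krtdap and 2.16 for Sprr1b. By contrast Casp14 stayed between 6.875 and 7.404 and Sprr3 between 5.63 and 6.011.

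With measures of other tissues or of the arrays no such tie passed the test. For Krt14 the values were r = -0.282 with the fibroblast collagen gene Col1a1 (adjusted permutation p = 0.105), -0.104 with the muscle creatine kinase gene Ckm (0.575), 0.056 with the Gapdh gap (0.730) and -0.148 with the bioD spike-in (0.462). For the Gapdh gap the value was -0.413 in set 1, 0.550 in set 2 and -0.026 in set 3. These values do not show that no tie exists.

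By the rule of the highest r over 41 tumours, 10 genes that are no members were taken as most like Krt14. The first was Krt6a (0.959), itself a keratin with a letter suffix. The others were Krtdap (0.945), 2610528A11Rik (0.932), Calm4 (0.930), S100a14 (0.924), Perp (0.923), Dmkn (0.917), Serpinb5 (0.912), Ly6d (0.902) and Dsc3 (0.894). Perp and Dsc3 encode desmosome proteins. For Krt10 they were the filaggrin gene Flg (0.951), Rptn (0.942), Calm4 (0.929), the desmocollin gene Dsc1 (0.926), Lce1f (0.916), Lce1a1 (0.908), Lce1d (0.904), Lce1c (0.902), Lor (0.896) and Fam25c (0.890). Flg, Rptn, Lor and the Lce1 genes encode proteins of the cornified layer. In these arrays 29 genes of a list of the cornified layer passed the filter. Their mean log2 intensity ran from 6.11 to 7.88 at day 0, from 7.49 to 10.22 at day 6 and from 6.05 to 10.75 in the late tumours, so that list too spread widely within a day.

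**Figure D4:**
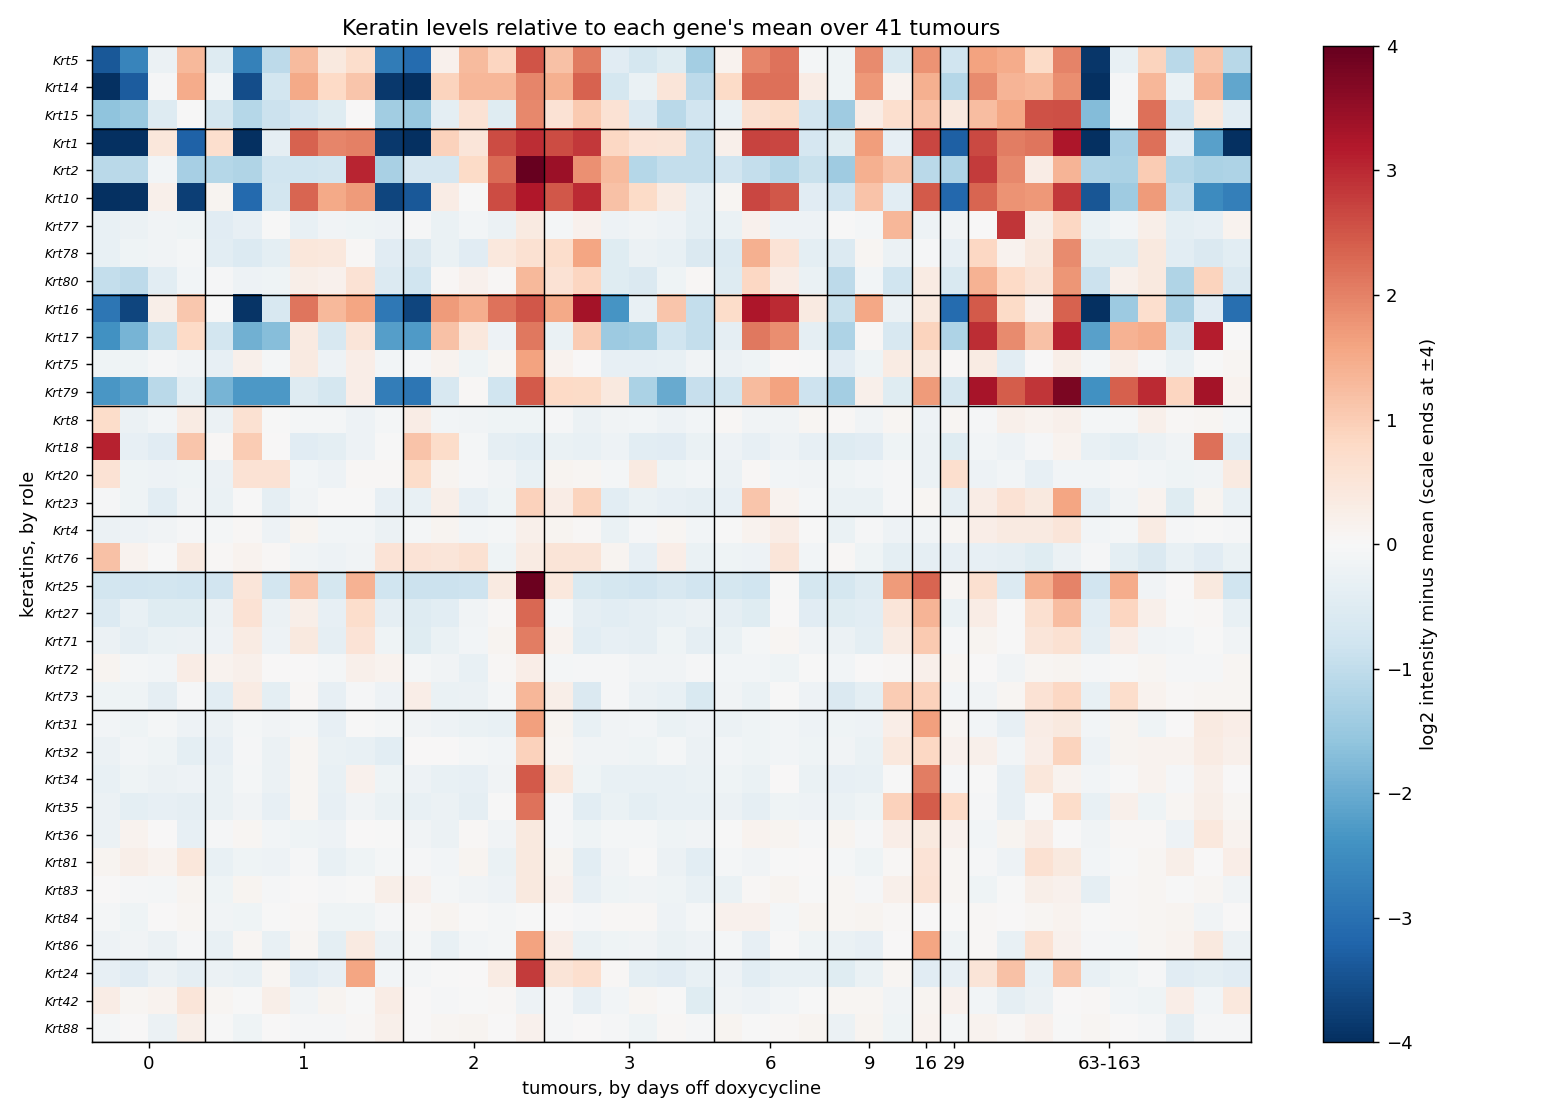
Log2 intensity of 36 keratins (rows, grouped by role) in 41 tumours (columns, by days off doxycycline) minus each gene's mean; colours end at 4 above and below the mean. Krt5, Krt14, Krt1, Krt10 and Krt16 are low together in 6 tumours spread over days 0, 1, 2 and the late group, and the inner root sheath and hair shaft keratins are high together in day 2 replicate 5 and the day 16 tumour.

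Krt16, which keratinocytes make after wounding and under stress and which is also a keratin of the hair follicle, followed the epidermal pair. It was at 6.34, 5.55, 9.47 and 10.32 at day 0, between 9.58 and 12.48 at day 6, and ran from 5.19 to 11.68 in the late tumours. The difference at day 6 was 3.14 ± 1.45 (SE, limma adjusted p = 0.153). Krt75, a keratin of the companion layer, ran from 5.405 to 7.445 and was called in no comparison.

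Krt17, a keratin of hair follicles and of injured epidermis, was at 4.82, 5.39, 6.36 and 8.05 at day 0 and between 5.06 and 10.38 in the late tumours (median 8.68). It rose in the late tumours by 2.32 ± 0.79 (SE, limma adjusted p = 0.0163) against day 0 and by 2.14 ± 0.66 (adjusted p = 0.0072) against day 1. Without day 0 replicate 1 or 2 the call against day 0 was lost (adjusted p up to 0.0865). It was also lost with a spike-in block (0.0828) and with the Gapdh gap as a covariate (0.31), and without the 9 tumours of a gap over 2 the difference was -0.35 against day 0 and -0.53 against day 1. The groups overlapped, since late replicate 5 (5.06) lay below all but 1 tumour of day 0.

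Krt79, a keratin of the hair follicle canal and the sebaceous duct, had the largest difference of any keratin between the late tumours and day 0. At day 0 it was at 6.02, 6.16, 7.26 and 7.94. At day 1 it ran from 5.57 to 8.61 (median 6.47), at day 3 from 6.32 to 9.14 (median 8.07), and at day 6 the values were 7.60, 9.60, 9.97 and 7.52. The late tumours were at 11.65, 10.75, 11.21, 12.11, 5.93, 10.74, 11.33, 9.22, 11.66 and 8.49. So 9 of the 10 late tumours lay above every tumour of day 0, and late replicate 5, which also had the second lowest Krt14 of all, lay below them. Outside the late group the highest values were 10.80 in day 2 replicate 5 and 10.03 in the day 16 tumour.

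Krt79 rose by 3.47 ± 0.85 (SE, 11-fold, limma adjusted p = 0.0012) against day 0 and by 3.42 ± 0.71 (adjusted p = 0.000163) against day 1. Both calls held with each tumour left out in turn (adjusted p up to 0.0082 and 0.000717). Within spike-in set 2 the mean was 10.37 in 8 late tumours and 6.73 in 6 tumours of day 1, a difference of 3.64. Within set 3, which has late replicates 9 and 10, the difference from day 0 was 3.23. With a block for spike-in set the difference from day 0 was 3.23 (adjusted p = 0.0527) and that from day 1 was 3.64 (adjusted p = 0.000327).

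RNA integrity moved with the same contrast. The Gapdh gap averaged 0.45 ± 0.12 (SD, n = 4) on the drug, 0.51 ± 0.34 (SD, n = 7) a day later and 2.62 ± 1.38 (SD, n = 10) late. With the gap as a covariate Krt79 differed by 2.48 (limma adjusted p = 0.0898) from day 0, and without the 9 tumours of a gap over 2 by 0.73 (adjusted p = 0.683), where only late replicates 5 and 8 remained, at 5.93 and 9.22. Krt79 correlated with the gap at r = 0.544 over 41 tumours (rho = 0.225, permutation p = 0.00023) and 0.443 without the 2 tumours farthest from the median, but at 0.242 for deviations from the day means (permutation p = 0.278). Within the sets the value was -0.360 in set 1, 0.830 in set 2 and 0.417 in set 3. With Krt14 it correlated at r = 0.691 (rho = 0.741, permutation p = 1e-05), at 0.692 without 2 tumours in the same way, and at 0.830 for deviations from the day means. The part of RNA integrity in the rise was not tested.

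**Figure D5:**
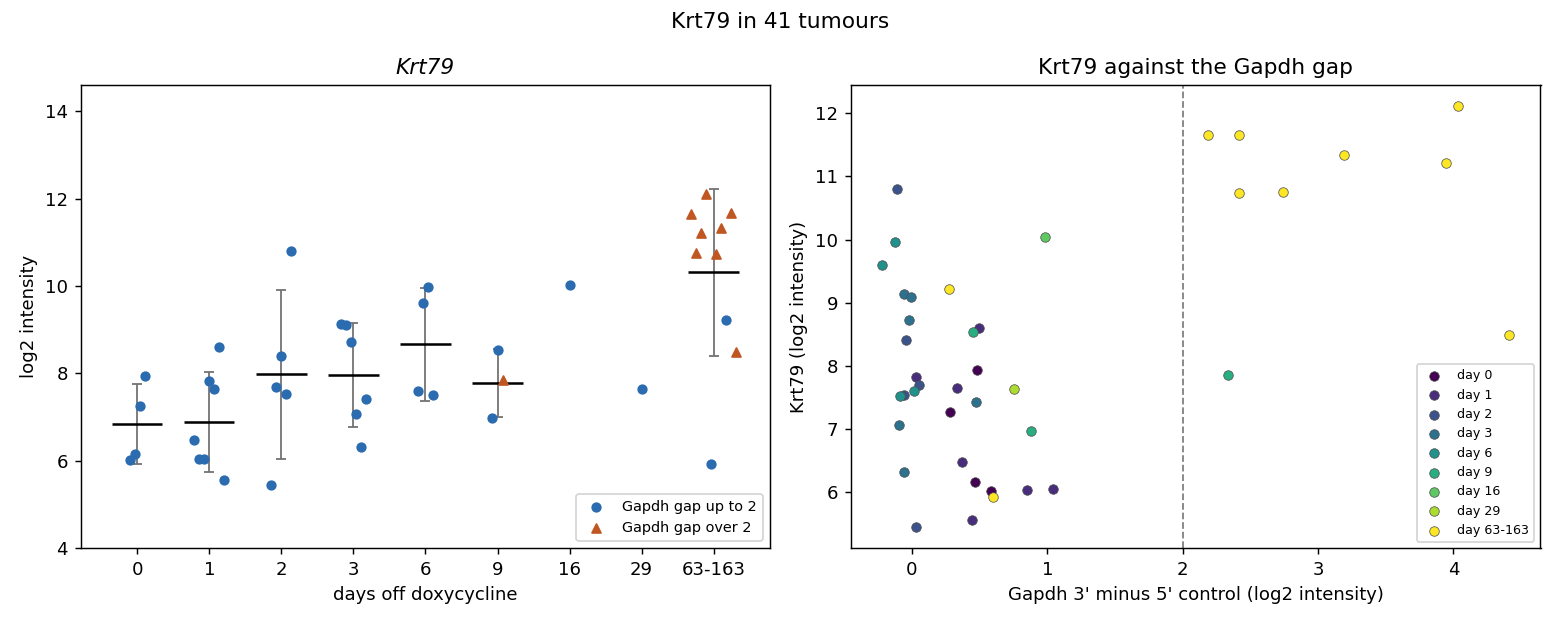
Left, log2 intensity of Krt79 in each tumour by days off doxycycline (line: mean; bar: SD; triangles: Gapdh gap over 2); right, the same values against the Gapdh 3' minus 5' gap, coloured by day, with a dashed line at 2. Of the 10 late tumours 8 lie to the right of the line, and the 2 to its left have a Krt79 of 5.93 and 9.22.

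The genes most like Krt79, looked up after its values had been seen, were Defb6 (0.956), Psapl1 (0.953), Cst6 (0.948), Sdr16c6 (0.923), Eppk1 (0.919), Fa2h (0.918), Elovl4 (0.912), Sostdc1 (0.912), Elovl3 (0.911) and Esrp2 (0.908). Fa2h, Elovl3 and Elovl4 encode enzymes that act on fatty acids and are on a list of sebaceous gland genes. Of the 10 tested genes of that list, 8 rose in the late tumours against day 0 and none fell, with a median difference of 2.20 against 0.05 over all tested genes, of which 26.3% rose. Fa2h rose by 3.30 ± 0.74 (SE, limma adjusted p = 5e-04), the reductase gene Far2 by 3.33 ± 0.74 (0.000406), Pparg by 1.41 ± 0.28 (0.000122) and Scd1 by 2.08 ± 0.38 (3.88e-05). Pparg and Scd1 are also expressed in adipocytes. The mean of the sebaceous list ran from 6.68 to 6.94 at day 0, from 6.56 to 7.73 at day 1 and from 6.80 to 10.06 in the late tumours. In late replicates 5 and 8, whose Gapdh gap was under 2, it was 6.80 and 7.84. In the late tumours of a gap over 2 it ran from 7.14, in replicate 10, to 10.06. The part of RNA integrity in these rises was not tested.

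Markers of other tissues moved in the late tumours too, and their part in the keratin calls was not tested. Against day 0, 6 of 12 tested genes of skeletal muscle and 5 of 10 of dermal fibroblasts rose. So did 2 of 6 of adipocytes and 6 of 7 of Schwann cells, and 1 adipocyte gene, Lipe, fell. Of 11 melanocyte genes 4 rose and none fell against day 0 (median difference 0.43). Over all tested genes 26.3% were called higher and 20.1% lower in that comparison. Against day 1, 7 melanocyte genes rose and 1 fell, beside 28.9% of all tested genes higher and 22.8% lower. The mean of the muscle list ran from 5.36 to 5.61 at day 0 and from 5.30 to 9.27 in the late tumours, and that of the Schwann cell list from 6.95 to 8.82 and from 10.23 to 11.30. Of the epidermal lists, 5 of 29 cornified layer genes (median difference 1.77), 4 of 19 genes of desmosomes and epithelial junctions (1.00) and 3 of 12 hair follicle genes (0.40) rose and none fell, shares below the 26.3% of all tested genes called higher. Among 14 genes of the basal layer and its regulators 2 rose, Trp63 by 1.84 ± 0.77 (limma adjusted p just under 0.05) and Grhl1 by 2.03 ± 0.64 (0.01), and 2 fell, the integrin gene Itga6 by a log2 change of -1.30 and Bnc1 by one of -1.46. In the cornified list Tgm1, a transglutaminase gene, rose by 1.31 ± 0.33 (limma adjusted p = 0.00164) and the protease gene Asprv1 by 2.31 ± 0.95 (0.0439). Of the 4 keratins with a letter suffix none was called, Krt6a being at 1.26 ± 1.13 (adjusted p = 0.371) and Krt6b at 1.31 ± 1.32 (0.426).

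The 4 tested simple epithelial keratins differed in how they ran with the epidermal ones. As a description over 41 tumours that share arrays and scaling, r with Krt14 was 0.477 for Krt23, -0.538 for Krt20, -0.385 for Krt8 and -0.360 for Krt18. Krt8 lay between 5.77 and 6.74 in all tumours and Krt18 between 4.95 and 8.53. Krt18 was above the 40th percentile of the array in 6 of 41 tumours, Krt20 in 7, Krt23 in 11 and Krt8 in 41. Most values of Krt18, Krt20 and Krt23 are thus low signals, and their correlations rest in part on them. Krt18 stood high in day 0 replicate 1 (8.53) and late replicate 9 (7.67), at 6.58 in day 2 replicate 1 and 6.56 in day 0 replicate 4, and lay under 6.50 elsewhere. Day 0 replicate 1, the tumour lowest in Krt14, was highest in Krt18 and in Krt8 (6.74). Krt8 and Krt18 correlated at r = 0.699 (rho = 0.410, adjusted permutation p = 0.000282), at 0.452 without the 2 tumours farthest from the median (adjusted p = 0.00999), and at 0.698 for deviations from the day means. Among the 10 late tumours the value was 0.196, and among the 35 tumours above the step in Krt14 it was 0.356.

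Between Krt14 and Krt8 the correlation was r = -0.385 (rho = -0.200, adjusted permutation p = 0.0246 and 0.288). It rested on few tumours, being -0.268 without the 2 farthest from the median (adjusted p = 0.153), and -0.726, -0.063 and -0.426 within the 3 sets. Krt8 and the epithelial adhesion gene Epcam had r = 0.101 (adjusted permutation p = 0.575). The differences from day 0 of Krt18 were -1.16 ± 0.46 (SE, limma adjusted p = 0.0646) at day 3 and -1.11 ± 0.50 (adjusted p = 0.140) at day 6, and no simple keratin was called in any of the 8 comparisons. At days 3 and 6 every value of Krt18 lay under the 40th percentile of the arrays. Krt20, a keratin of Merkel cells and of gut and bladder lining, ran from 5.07 to 6.13, and Krt23 from 5.09 to 7.13. Krt7 and Krt19, keratins of glands and ducts, did not pass the filter, and Krt7 was above the 40th percentile in 1 tumour, at 7.73. The genes most like Krt8 were Kcnq1 (0.725), Dynap (0.709), Msrb2 (0.683), Lrrk2 (0.669), Aqp8 (0.650), Rapgef3 (0.643), Fbp2 (0.641), Rhbdd1 (0.640), Cdc16 (0.639) and Chst1 (0.636).

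The keratins of the inner root sheath reached their highest values in day 2 replicate 5. Krt25 was between 4.70 and 4.75 in the 4 tumours of day 0, and at 4.64, 4.62, 4.67, 5.86 and 9.42 at day 2. It was 7.82 in the day 16 tumour, 7.19 in day 9 replicate 3, and between 4.70 and 7.49 in the late tumours (median 5.69). At day 1 it ran from 4.68 to 6.88 (median 4.79). It lay above the 40th percentile of the array in 13 of 41 tumours, and Krt27 in 18. Krt27 reached 8.11 and Krt71 8.21 in the same day 2 replicate 5, and 7.17 and 7.21 in the day 16 tumour. Krt73 ran from 5.78 to 7.70 and Krt72 from 5.43 to 6.02. None of these 5 was called in any comparison, and Krt26 and Krt28 did not pass the filter.

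Among the hair shaft keratins the same pair of tumours stood out. Krt31 was at 7.71 in day 2 replicate 5 and 7.69 in the day 16 tumour, and no higher than 6.44 in any other. Krt35 was at 7.94 and 8.18, against at most 6.70 elsewhere, Krt34 at 7.83 and 7.42, and Krt86 at 6.85 and 6.83. Krt34 lay above the 40th percentile of the array in 4 of 41 tumours and Krt86 in 3, the fewest the filter allows. Both thus passed the filter only with the help of this pair of tumours. The mean of a list of other hair follicle genes was 7.74 in the highest tumour of day 2 and 7.28 in the day 16 tumour, against 5.64 to 5.94 at day 0 and 5.65 to 7.32 in the late tumours. Krt14 and Krt71 correlated at r = 0.342 (rho = 0.404, adjusted permutation p = 0.0481 and 0.0175), but at 0.319 (adjusted p = 0.0896) without the 2 tumours farthest from the median and at 0.357 (adjusted p = 0.173) for deviations from the day means. The genes most like Krt71 were Tchh (0.918), which encodes trichohyalin of the inner root sheath, Krtap11-1 (0.917), Krtap4-6 (0.916), Krtap17-1 (0.901), Krtap13-1 (0.892), Krt33b and Krt33a (0.886 each), Krtap4-16 (0.846), Krtap7-1 (0.832) and Krtap26-1 (0.821). The Krtap genes encode proteins that embed the keratin filaments of hair.

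Other hair keratins passed the test with small differences. The median log2 intensity of the arrays lay between 5.70 and 5.84, near the levels of Krt32 and Krt84 and below those of Krt81. Krt32 averaged 5.83 ± 0.12 (SD, n = 4) on the drug and 6.25 ± 0.30 (SD, n = 10) late, and rose by 0.42 ± 0.15 (SE, limma adjusted p = 0.0209), a call lost without day 0 replicate 4 (adjusted p = 0.0798). Krt81 was at 7.38, 7.50, 7.41 and 7.74 at day 0, between 6.97 and 7.23 at day 1 and between 6.85 and 7.38 at day 3. It fell by 0.41 on the log2 scale at day 1 and by 0.43 at day 3 (limma adjusted p = 0.0233 and 0.0165). Both calls were lost without day 0 replicate 4 (adjusted p = 0.136 and 0.0951) and with a block for spike-in set (0.195 and 0.369). Against day 1 the late tumours were higher in Krt32 by 0.41, in Krt81 by 0.31 and in Krt84 by 0.14 (adjusted p = 0.00622, 0.00892 and 0.0236). The call of Krt84 was lost without day 1 replicate 2, 5 or 6 (up to 0.0531). Krt36 ran from 5.61 to 6.36 and Krt83 from 6.48 to 7.43, and Krt82 did not pass the filter.

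Of the keratins of internal stratified epithelia, Krt76, a keratin of the hard palate and gums, was lower in the late tumours than at day 0. It was at 6.64, 5.63, 5.45 and 5.84 at day 0 and between 4.89 and 5.44 in the late tumours (median 5.14). The highest late value, 5.440, nearly met the lowest of day 0, 5.446. Krt76 exceeded the 40th percentile of the array in 11 of 41 tumours, none of them late, so it passed the filter only through other groups. It fell by 0.76 on the log2 scale (limma adjusted p = 0.000661), and the call held with each tumour left out in turn (adjusted p up to 0.0184). Its only probe set is of the kind marked as prone to cross-hybridisation, with no other to compare. Against day 1 it fell by 0.38 on the log2 scale (adjusted p = 0.0277), a call lost without day 1 replicate 7 (0.0922). Krt4, a keratin of the oesophagus and tongue, averaged 5.95 ± 0.08 (SD, n = 4) on the drug and 6.27 ± 0.23 (SD, n = 10) late, and rose by 0.31 ± 0.10 (SE, limma adjusted p = 0.0102). Krt13, its type I partner, and the corneal keratin Krt12 did not pass the filter, Krt13 lying between 4.55 and 4.78 in all tumours. No detection calls were used, so whether the levels of Krt4 and Krt76 were above background was not tested.

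Of the remaining members, Krt24 was high in day 2 replicate 5 (8.42) and day 1 replicate 6 (7.19), and Krt88 ran from 6.51 to 7.11. Krt42 was between 7.92 and 8.32 at day 0 and between 7.34 and 7.90 at day 3, and it fell by 0.41 on the log2 scale (limma adjusted p = 0.0135). In the late tumours it fell by 0.28 (adjusted p = 0.0339). The first call was lost without day 0 replicate 4 (0.0849), and the second without day 0 replicate 1 or 4 or late replicate 2, 3 or 7 (up to 0.175). The kept probe set of Krt42 is of the kind marked as prone to cross-hybridisation. It correlated with the gene's other probe set at 0.262, and with their mean the late difference was -0.07 (adjusted p = 0.507). Krt222, a keratin-like gene, lay between 4.8 and 5.24 and did not pass the filter. The 8 keratins that did not pass had means between 4.64 and 5.31.

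Counted over all 36 tested keratins, few were called at any time, and the comparisons with day 0 share the same 4 tumours. At day 1 limma called none higher and 1 lower, Krt81, against 13.8% of all tested genes in either direction and 6.25% lower, and without day 0 replicate 4 it called 0. At day 2 it called 0 (15.1% of all genes). At an unadjusted p under 0.05 there were 6 keratins higher and 1 lower at day 2 (29.8% of all genes), robust limma with a trend also called 0, and without day 0 replicate 3 or day 2 replicate 1 it called 1 and 2. At day 3 Krt10 was higher and Krt42 and Krt81 lower, against 21.3% of all genes, 9.74% higher and 11.6% lower, and leaving out day 0 replicate 3 turned the 3 calls into 5, or leaving out day 0 replicate 4 into 0.

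At day 6 limma called 0 (12.2% of all genes), with 5 higher and 3 lower at an unadjusted p under 0.05 (27.4% of all genes) and 0 by robust limma with a trend. It called 1 when day 0 replicate 2 was left out, and 3 when day 0 replicate 3 was. At day 9, which shares the spike-in set of day 0, limma called 0 (4.56% of all genes), with none higher and 2 lower at an unadjusted p under 0.05 (21.7% of all genes) and 0 by robust limma with a trend. Day 6 against day 1 gave 0 as well (4.18% of all genes), with 2 higher and 1 lower at an unadjusted p under 0.05 (19.2% of all genes), 0 by robust limma with a trend and 1 without day 1 replicate 4.

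In the late tumours against day 0, Krt79, Krt17, Krt15, Krt80, Krt32 and Krt4 were called higher and Krt76 and Krt42 lower. These 8 of 36 (22.2%) compare with 46.4% of all tested genes, of which 26.3% were higher and 20.1% lower. Without day 0 replicate 1 there were 4 calls. With the Gapdh gap as a covariate there was 1 call, beside 24.2% of all tested genes. A block for spike-in set left 2 calls (30.1% of all genes), and leaving out the 9 tumours of a gap over 2 left none (28.2%). Under the block the adjusted p of limma was 0.0828 for Krt17, 0.48 for Krt15, 0.0827 for Krt32 and 0.539 for Krt4, and under the covariate 0.31, 0.763, 0.586 and 0.3. Krt76 lost its call only without the 9 tumours, at -0.57 (adjusted p = 0.134). Against day 1, Krt79, Krt17, Krt15, Krt32, Krt81, Krt4 and Krt84 were higher and Krt76 lower, again 8 of 36 (22.2%), beside 51.7% of all tested genes, of which 28.9% were higher and 22.8% lower. With the covariate or without the 9 tumours limma called none (25.7% and 26.1% of all tested genes). The median difference over the 36 keratins was 0.36 against day 0 and 0.20 against day 1, beside 0.05 and 0.06 over all tested genes. Against day 0 it was 0.15 with the block, 0.10 with the covariate and -0.09 without the 9 tumours, and against day 1 it was 0.32, -0.06 and -0.20. For the earlier days against day 0 it was 0.07 (day 1), 0.38 (day 2), 0.07 (day 3), 0.08 (day 6) and 0.12 (day 9). With the block the first 4 of these turned to -0.028, -0.0050, -0.24 and -0.15, and without day 9 replicate 3 the last was -0.0094. Leaving out 1 tumour moved the day 2 value between 0.096 and 0.499. In each of the 8 comparisons the share of keratins called was below the share of all tested genes.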

How the data were processed

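RNA of 41 tumours was hybridised to Affymetrix mouse arrays, 1 per tumour, per the labels' protocols. The authors' deposited table gives linear intensities per probe set. The submitters' processing notes name MAS5 and RMA with no version and no role, and a genome build is not given in the sources used here. Of 45101 probe sets, 34958 named 1 gene, 932 several and 9211 none.

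From each intensity log2(value + 16) was computed, followed by quantile normalisation across arrays. A limma 3.58.1 model (R 4.3.3) of all groups (32 residual, 2.58 prior degrees of freedom) gave moderated tests with Benjamini-Hochberg adjustment. Groups were the days in the labels. All groups share the strain's alleles, not all of which are reported here. Single tumours of days 16 and 29 entered no comparison, and the number of arrays limits the precision. Correlations had two-sided permutation tests (numpy 2.4.6), and figures used matplotlib 3.10.9 in Python 3.11.15. Members and gene lists were chosen with earlier results of these data known. The text names every keratin, by rule with full values for a fixed set of each role and for those called, and the 10 genes of highest r with Krt14, Krt10, Krt8 and Krt71. Krt79's 10 genes and the within-set values were added after values had been seen. Alternatives were array scaling, pseudocounts 1 and 64, the filter, the mean of probe sets, robust limma with a trend, other samples in the fit, a spike-in block, a Gapdh covariate and each tumour left out.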

Additional observations from a re-analysis of the deposited data

Results flagged for a closer look

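In groups of 4 to 10 tumours, the gap between the highest or lowest tumour and its nearest neighbour was set against the whole range of the group (Dixon's test at 95%). Over 24 keratins and 6 groups 144 pairs were tested, of which chance alone would give about 7.2 (1 in 20), and 21 values from 10 tumours stood apart. Of these values, 7 are of 1 tumour, day 2 replicate 5, all highest of its day. They are 9.418 for Krt25, 8.111 for Krt27 and 8.212 for Krt71 of the inner root sheath, and 7.714 for Krt31, 6.98 for Krt32, 7.938 for Krt35 and 6.846 for Krt86 of the hair shaft. The members of these follicle keratins rise together, so the 7 are not independent. Krt86 lay above the 40th percentile of the array in only 3 tumours, this one among them, so it passed the filter in part through this value.

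Day 2 replicate 1 stood apart in 3 keratins. It was the lowest of its day in Krt14 (6.907) and Krt16 (5.555) and the highest in Krt8 (6.316). Day 1 replicate 2, another tumour of low Krt14, was the highest of its day in Krt8 (6.618) and Krt18 (6.47). Late replicate 9 was the highest late tumour in Krt18 (7.67), and late replicate 5 the lowest in Krt5 (5.862).

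Among the epidermal keratins, Krt10 stood apart at 10.89 in day 0 replicate 3, and Krt2 at 8.958 in day 1 replicate 6. Day 3 replicate 1 was highest of its day in Krt25 (5.907) and Krt86 (5.514), and day 6 replicate 3 in Krt25 (5.468) and Krt76 (5.949). The 40th percentile of the arrays lay at 5.67. That is above this value of Krt86, the day 6 value of Krt25 and the 5.555 of Krt16 in day 2 replicate 1, which are thus low signals. Late replicate 4 was the highest late tumour in Krt32 (6.956).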

How the results depend on the processing

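No paired analysis was possible because the labels give no replicate numbers, and those used here only name the tumours. The call counts of the report moved by over 1.5 times as follows. With arrays centred on their medians there were 0 at day 1 and 1 at day 6, beside 13% and 11% of all tested genes. Krt14 with Krt71 then had r = 0.337 (adjusted permutation p = 0.0522). The filter at the 60th percentile left 21 keratins in place of 36. It gave 1 at day 6 and 5 late against day 1 (14.7% and 56.2% of all genes). The keratin median difference was then 0.9314 at day 2 and 0.9304 late. With the mean of probe sets there was 1 at day 6 (15.6% of all genes). With only the groups compared there were 1 at day 6 (13.6%) and 4 late against day 0 (37.6%). With a block for spike-in set there were 0 at day 1 (11.5% of all genes), 0 at day 3 (0.936%) and 2 late against day 0 (30.1%). At day 3 Krt10 (-2.07) and Krt42 (0.077) changed sign. The keratin median difference also changed sign with that block, to -0.24 at day 3, -0.15 at day 6 and -0.12 for day 6 against day 1. With the Gapdh gap as a covariate there were 2 at day 6 (15.7% of all genes), 1 late against day 0 (24.2%), 0 late against day 1 (25.7%) and 0 among days. The keratin median was then 0.10 late against day 0 and -0.06 late against day 1. Leaving out the 9 tumours of a gap over 2 was an alternative added after the data had been seen. It gave 5 at day 3 (26.6% of all genes), 2 at day 6 (18.2%), 0 late against day 0 (28.2%), 0 late against day 1 (26.1%) and 2 among days. Late against day 0, Krt15 (-0.34), Krt17 (-0.35) and Krt80 (-0.39) then changed sign, as did Krt15 (-0.50) and Krt17 (-0.53) against day 1, with 2 late tumours left, and the keratin median was -0.09 and -0.20. The causes of these changes were not tested. Leaving out each tumour in turn gave counts of 0 to 1 (day 1), 0 to 2 (day 2), 0 to 5 (day 3), 0 to 3 (day 6), 0 (day 9), 4 to 11 late against day 0, 0 to 1 for day 6 against day 1, 7 to 8 late against day 1 and 5 to 7 among days.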
